A study of Arabidopsis thaliana with 6 samples.

Results

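FAMA, TMM, BASL and HDG2 are 4 genes of the stomatal lineage, the series of epidermal cell divisions and fate steps that ends in a pair of guard cells around a pore. They were taken by locus code from the 5311 genes of the authors' deposited table, in which genes of wild-type and dme mutant seedlings of Arabidopsis thaliana are compared, and all 4 codes were found. In this lineage the basic helix-loop-helix factors SPCH, MUTE and FAMA act one after the other, together with the partners SCRM and SCRM2, to start the asymmetric divisions, to end them and to form guard cells. Secreted EPF peptides, read by receptor kinases of the ERECTA family with the receptor-like protein TMM, and a MAP kinase cascade below them restrain the lineage and space the stomata. BASL marks 1 side of the dividing cell and makes the division unequal, and HDG2, a homeodomain-leucine zipper factor of class IV, works in the epidermis, where it favours stomatal differentiation.

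Whole seedlings of the Ler accession were harvested 7 days after germination on MS plates, with 3 libraries of wild type (WT) and 3 of the mutant, whose genotype is labelled dme/-. DME encodes a DNA glycosylase that excises 5-methylcytosine, and the comparison asks which transcripts of the seedling differ without it. The dme allele, the way mutant seedlings were obtained and the number of seedlings per library are not given in the sources at hand, nor is it said whether the 3 libraries of a genotype are separate growths, so that the p-values may measure technical spread only. Values per library, standard errors and depths are not part of the table. Its genes all passed a 2-fold difference and an adjusted p under 0.05, and its 4 columns of values are the mean normalized count over all 6 libraries, the log2 fold change, here called the log2 ratio, the linear fold, and the adjusted p. The direction, dme relative to WT, was taken from the table's name and from its labels of lower and higher genes. There, DME itself stood at a log2 ratio of -1.55. The 4 genes were chosen because this table lists them as lower, so their values are a description with no test, and nothing about the mutant is supported by the fact that all 4 were lower: lower genes made up 27.2% of the table, and 4.83% of all annotated protein-coding genes were in it as lower.

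The stretches of 250 bases before the annotated start of each gene are shown first, because they hold letters that 3 of the 4 genes share and that played no part in choosing them. They were read from the RefSeq genome TAIR10.1, on the strand of the gene and ending at the base before its start. Capitals mark matches to the L1 box, searched as TAAATGCA and TAAATGTA, and to the E-box, searched as CANNTG, both on either strand.
FAMA, chr3:8718212-8718461, minus strand: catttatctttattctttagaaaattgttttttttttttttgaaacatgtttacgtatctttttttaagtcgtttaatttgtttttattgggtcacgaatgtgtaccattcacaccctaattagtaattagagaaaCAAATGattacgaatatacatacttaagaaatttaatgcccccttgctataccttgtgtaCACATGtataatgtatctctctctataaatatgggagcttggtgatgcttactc
TMM, chr1:30129650-30129899, minus strand: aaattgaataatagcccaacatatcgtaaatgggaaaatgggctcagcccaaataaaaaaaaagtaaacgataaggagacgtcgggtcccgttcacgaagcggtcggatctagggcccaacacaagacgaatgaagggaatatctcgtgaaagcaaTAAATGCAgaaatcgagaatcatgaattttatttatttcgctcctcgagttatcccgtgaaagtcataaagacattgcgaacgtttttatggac
BASL, chr5:24489837-24490086, minus strand: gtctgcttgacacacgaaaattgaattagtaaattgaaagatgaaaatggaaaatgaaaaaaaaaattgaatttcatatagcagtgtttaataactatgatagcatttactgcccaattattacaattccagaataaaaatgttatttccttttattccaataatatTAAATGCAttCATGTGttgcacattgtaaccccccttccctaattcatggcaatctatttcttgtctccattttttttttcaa
HDG2, chr1:1518901-1519150, minus strand: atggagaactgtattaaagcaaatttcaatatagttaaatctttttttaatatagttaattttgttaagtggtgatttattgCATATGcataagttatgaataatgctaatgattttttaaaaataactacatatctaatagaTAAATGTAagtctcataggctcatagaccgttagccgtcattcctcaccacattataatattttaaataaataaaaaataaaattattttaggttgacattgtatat

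An L1 box, the letters that class IV homeodomain-leucine zipper factors such as HDG2 and ATML1 are known to bind, was present in 3 of the 4 stretches. TMM held TAAATGCA at 94 to 87 bases before its start and BASL the same letters at 83 to 76. HDG2, which belongs to the family that binds the motif, held TAAATGTA at 107 to 100 bases before its own start. The 3 matches therefore lay at similar distances, and none was found for FAMA even within 1000 bases. Of 27443 protein-coding genes with a full stretch, 4.49% held either form of the motif. Among the protein-coding genes of the authors' deposited table the share was 5.03% of the 1331 lower and 4.28% of the 3762 higher genes. The motif was chosen for its known link with HDG2 and the 4 genes were chosen together, so no test was made, and a match does not show that a factor binds there.

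Other motifs were counted in the same stretches. E-boxes, the class of sites that basic helix-loop-helix factors including FAMA and SPCH recognise, were found in FAMA (2), BASL (1) and HDG2 (1) and not in TMM, against 55.3% of all genes. In BASL the E-box CATGTG began 3 bases after the last base of the L1 box, at 73 to 68 bases before the start, and no 2 of the capitalised matches overlapped. The G-box CACGTG, a form of the E-box, was in none of the 4 and in 6.49% of all genes. CG dinucleotides, the main context of maintained methylation and a substrate of DME when methylated, numbered 4 in FAMA, 16 in TMM, 1 in BASL and 2 in HDG2, against a median of 5 over all genes with quartiles of 3 and 7. TMM thus stood above the upper quartile and BASL and HDG2 below the lower. These counts were not adjusted for base composition. The share of G and C was 28.8% in FAMA, 40.4% in TMM, 28% in BASL and 22.8% in HDG2, against a median of 31.2%. Methylation was not measured in these libraries.

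**Figure D1:**
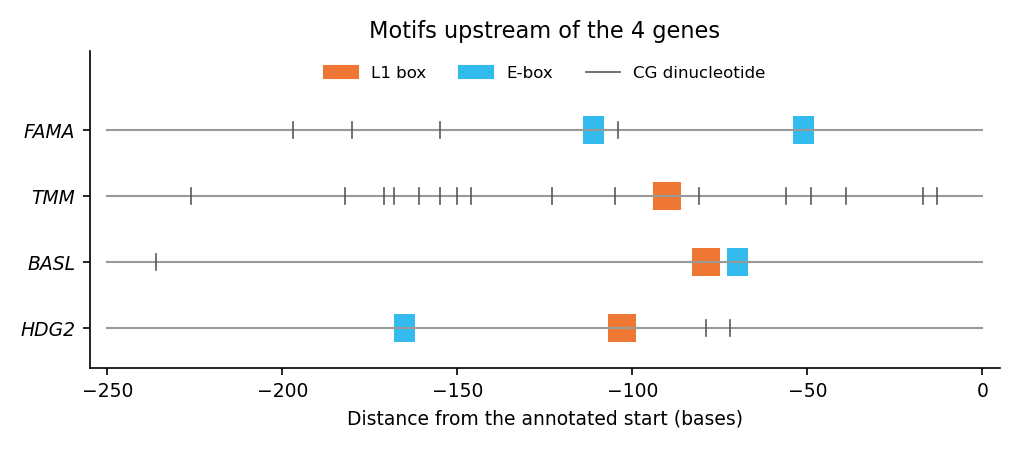
Positions of motifs in the 250 bases upstream of each gene, in bases from the annotated start (x axis), with 1 line per gene. L1 boxes (orange) stand between 107 and 76 bases before the start in TMM, BASL and HDG2, E-boxes (blue) in FAMA, BASL and HDG2, and thin ticks mark CG dinucleotides, of which TMM has 16.

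All 4 genes, chosen as lower, had falls of between 2-fold and 4-fold in dme. The table holds no lower gene inside 2-fold, and 343 of its 1444 lower genes also passed 4-fold. Similar falls among 4 of them therefore say little. Their levels in dme were between 35.5% and 48.0% of those in WT, on the linear fold of the authors' deposited table, and their mean normalized counts ranged from 79.1 to 1668. Genotype means were computed from that mean and fold on the assumption that the mean is the plain mean of 3 and 3 libraries and the fold the ratio of the group means, and are called implied means. From the adjusted p an upper bound on the standard error (SE) of each log2 ratio was computed, assuming a Wald test, and the 95% interval given with each log2 ratio is the widest that this bound allows. In bulk tissue fewer cells of a type and less RNA per cell cannot be told apart.

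FAMA (AT3G24140), the factor that drives the last step to guard cells and stops further division, was the most abundant of the 4. Its implied mean was 2371 normalized counts in WT and 964 in dme, or 40.6% of the WT level. Its log2 ratio was -1.30 in the authors' deposited table, where its adjusted p was 6.02e-70. The SE was at most 0.073 and the interval at most -1.44 to -1.15. Among the 100 lower genes nearest to it in mean, 0 had a smaller bound and the median bound was 0.115, so the bound of FAMA was below those of all its neighbours in abundance.

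TMM (AT1G80080), which lacks a kinase domain and shapes how ERECTA-family kinases respond to EPF peptides, had an implied mean of 1344 normalized counts in WT and 479 in dme, or 35.7% of the WT level. The authors' deposited table puts its log2 ratio at -1.49 with an adjusted p of 2.39e-29. The SE was at most 0.13 and the interval at most -1.75 to -1.23. Of the 100 lower genes nearest in mean, 45 had a smaller bound, which places TMM near the middle.

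BASL (AT5G60880), the polarity protein of asymmetric division, was the least abundant. Its implied mean was 117 normalized counts in WT and 41.4 in dme, or 35.5% of the WT level. Its log2 ratio of -1.49 in the authors' deposited table came with adjusted p = 1.44e-05. With these lower counts the SE was only bounded at 0.34 and the interval at -2.17 to -0.82. Among the 100 lower genes nearest in mean, 23 had a smaller bound and the median bound was 0.397.

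HDG2 (AT1G05230) had the smallest difference, close to the 2-fold limit of the table. Its implied mean was 618 normalized counts in WT and 296 in dme, or 48.0% of the WT level. The authors' deposited table gives a log2 ratio of -1.06 and an adjusted p of 0.000637. Its SE bound of 0.31 was above the median of 0.18 for the 100 lower genes nearest in mean, 88 of which had a smaller bound, and the interval of -1.67 to -0.45 was nearly as wide as that of BASL despite the higher count. A long noncoding RNA gene, AT1G04353, overlaps HDG2 on the opposite strand in the RefSeq annotation. Because the use of strand in counting is not given, reads from the stretch that they share cannot be told apart. The length of that stretch was not computed.

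The intervals of the 4 log2 ratios overlapped in every pair, so the order of their falls, from BASL and TMM through FAMA to HDG2, is not resolved by these bounds. The median log2 ratio was -1.38 in the authors' deposited table over the 1389 lower genes that both genotypes had reads for. BASL and TMM had larger falls than 58.1% and 57.6% of these genes, FAMA than 42.8% and HDG2 than 11.7%, so that none stood at the extreme. By adjusted p, FAMA ranked 64 of the 1389 and TMM 297, whereas BASL and HDG2 ranked 952 and 1087.

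**Figure D2:**
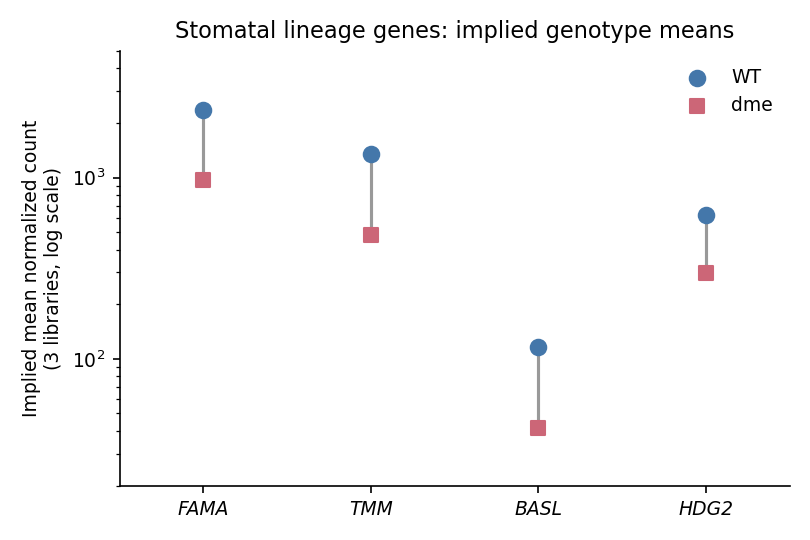
Implied mean normalized counts of FAMA, TMM, BASL and HDG2 in WT (circles) and dme (squares), each the mean of 3 libraries, on a log axis, without error bars because no value per library is given. The lines between the genotypes are of similar length on the log axis, from 2371 to 964 for FAMA and from 117 to 41.4 for BASL.

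Levels of different genes were compared per kilobase of annotated exon. In WT the implied mean per kilobase was 999.7 for FAMA and 734 for TMM, and 149 for HDG2 and 92.0 for BASL. In dme the order was the same, with 406, 262, 71.7 and 32.7. Without values per library it cannot be said which neighbours in this order differ beyond their spread. The exonic lengths behind these values were 2372 bases for FAMA, 1831 for TMM, 4132 for HDG2 and 1269 for BASL, each joined over all annotated transcripts of the gene. HDG2 has 12 annotated transcripts and TMM 1, and which of them were expressed is not known here.

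**Figure D3:**
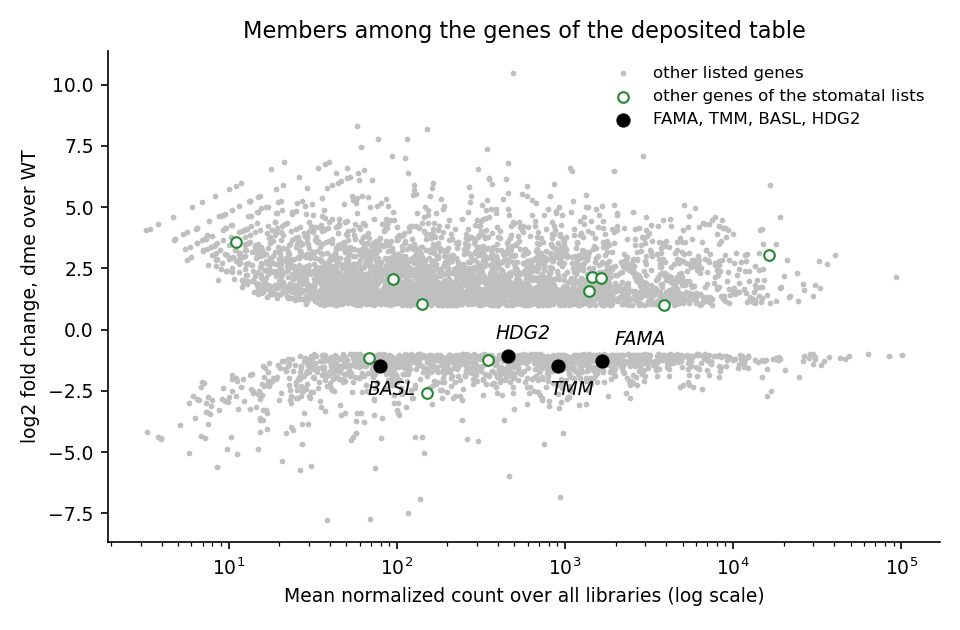
Mean normalized count over all libraries (x axis, log scale) against log2 ratio of dme over WT (y axis) for the genes of the authors' deposited table with reads in both genotypes. FAMA, TMM, BASL and HDG2 (black) lie between -1.49 and -1.06 inside the band of lower genes (grey), and the other 11 listed genes of the stomatal lists (green rings) lie on both sides of 0.

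The 4 loci are apart in the genome and have no near-identical copies that would share reads. In TAIR10.1, FAMA spans positions 8715118 to 8718211 of chromosome 3 with 6 exons in its longest coding transcript. TMM spans 30127819 to 30129649 of chromosome 1 with 1 exon, and HDG2 spans 1512896 to 1518900 at the other end of that chromosome with 13 exons. BASL spans 24488289 to 24489836 of chromosome 5 with 5 exons. The transcripts of TMM and BASL matched no other protein-coding gene in a blastn search with an E-value limit of 1e-05. The best match of HDG2 was PDF2, at 70.2% identity over 2068 bases, and that of FAMA was the basic helix-loop-helix gene AT4G01460, at 72.8% over 213 bases. Of the 24 genes that flank the 4 loci, 3 on each side of each, 3 were in the authors' deposited table as higher and 0 as lower. Of all protein-coding genes 13.6% and 4.83% were, but the 24 also include long noncoding RNA genes, so the sets differ. The 3 listed neighbours were PP2-B11 near TMM, MYB34 next to BASL and AT1G05210 near HDG2. For these the authors' deposited table gives log2 ratios of 1.08, 1.52 and 1.37.

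The wider pathway was listed in both directions. Of 59 genes in 6 lists of stomatal development, 15 were in the authors' deposited table, 7 lower and 8 higher, and 4 of the lower ones are FAMA, TMM, BASL and HDG2, which were chosen for being there. Of the other 55 genes 11 (20%) were listed, near the 18.5% of all annotated protein-coding genes, and 3 were lower and 8 higher, beside 4.83% and 13.6% of all annotated protein-coding genes. The median log2 ratio of the 15 was 1.02, beside 1.59 over the whole of the authors' deposited table. This median includes the 4 genes chosen as lower, which pull it down. The middle value of the other 11 was that of CRSP, 1.60. With all log2 ratios shifted up by 0.5, as an example of another scaling of the libraries, 1 of these 15 would still be lower by 2-fold and 8 higher. Such a shift can only remove lower genes and cannot remove a higher one. Over the whole table it took the lower genes from 1444 to 631 and left the higher at 3867. Of a gene that the table leaves out, it is not known whether it was tested. The counts of the single lists below stand beside the same 4.83% lower and 13.6% higher. These lists are so short that 1 gene moves their shares widely, so no difference between them is read from the counts.

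Among the 11 transcription factors other than FAMA and HDG2, 1 was lower and 0 were higher. Of all annotated protein-coding genes 4.83% and 13.6% were. The lower factor was SCAP1, a Dof factor of guard cell maturation, for which the authors' deposited table gives a log2 ratio of -1.22 and an adjusted p of 8.50e-14. SPCH, MUTE, SCRM, SCRM2 and the MYB factors FLP and MYB88, which limit the last division, were not listed. The closest relatives of HDG2 in the epidermis, ATML1 and PDF2, were not listed either. Of the 16 genes of class IV, HDG7 was the other listed member and was higher, with a log2 ratio of 1.29 in the authors' deposited table.

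Of 8 receptors, TMM was lower and 2 co-receptor kinases were higher. BAK1, which also serves brassinosteroid and immune receptors, had a log2 ratio of 1.02 in the authors' deposited table, and SERK4 one of 2.16. The SERK4 transcript is 89.2% identical to that of SERK5 over 1964 bases, so its reads are less certain. The kinases ER, ERL1 and ERL2, with which TMM works, were not listed. Of 8 ligands and proteases, EPFL5, an EPF-like peptide gene, was lower with a log2 ratio of -1.15 in the authors' deposited table. The subtilase genes SDD1, which limits stomatal number, and CRSP, whose product cleaves the EPF2 precursor, were higher at 1.04 and 1.60 as log2 ratios of the authors' deposited table. The peptide genes EPF1, EPF2 and STOMAGEN were not listed.

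Of 7 genes of the MAP kinase cascade 2 were higher and 0 lower, where 13.6% and 4.83% of all annotated protein-coding genes were. MPK3 rose 8.19-fold and MKK4 4.25-fold in the authors' deposited table, and both also act in immunity. YDA, MKK5 and MPK6 were not listed. BASL was the only listed gene of 12 polarity genes, and its partners POLAR, BRXL2 and the BSL phosphatase genes were not in the table. Of 11 genes of division in the lineage, the cyclin gene CYCD3;1 was lower, with a log2 ratio of -2.60 in the authors' deposited table, while CYCA2;2 and CDKB1;1 were higher, at log2 ratios of 2.09 and 3.57 there. The implied WT mean of CDKB1;1 was 1.71 normalized counts, so its fold rests on few reads. Its transcript was 85.4% identical to that of CDKB1;2 over 937 bases. These division genes act in many dividing tissues.

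**Figure D4:**
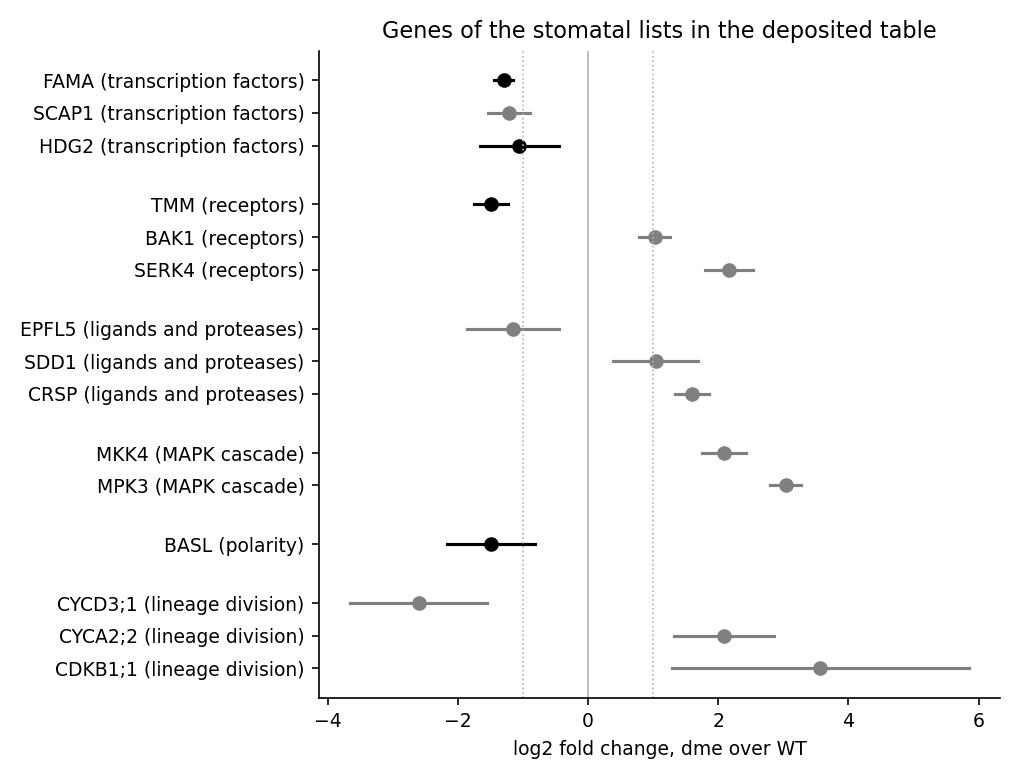
Log2 ratio of dme over WT (x axis) for the 15 listed genes of the stomatal lists, grouped by role, with FAMA, TMM, BASL and HDG2 in black. Bars are the widest 95% intervals that the adjusted p allows under a Wald test, and dotted lines mark the 2-fold limits of the table. The 4 black genes were chosen as lower, and of the other 11 genes 3 lie left of 0 and 8 right of it, with MPK3 at 3.03.

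Of 12 markers of mature guard cells 1 was lower and 3 were higher, where 4.83% and 13.6% of all annotated protein-coding genes were. MYB60, a guard cell MYB factor of stomatal opening, was lower with a log2 ratio of -1.25 in the authors' deposited table, close to FAMA. The potassium outward channel gene GORK, MYB61 and the myrosinase gene TGG2 were higher, at 1.21, 1.61 and 2.26 on the same scale of the authors' deposited table. Their implied WT means were 286, 29.9 and 25.4 normalized counts, so those of MYB61 and TGG2 were low. In whole seedlings it is not known whether the reads of these genes came from guard cells. The other 8, among them KAT1, SLAC1, OST1 and HT1, were not listed. The summed implied mean of the 4 listed markers was 1547 normalized counts in WT and 1379 in dme, of which MYB60 made up 1206 and 506.

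Markers of other cell types of the seedling also differed. Their counts stand beside the 4.83% of all annotated protein-coding genes that were listed as lower and the 13.6% listed as higher. All these lists were chosen with earlier results of these data known. The counts therefore describe the chosen genes and do not measure how often markers of a cell type changed. Of 9 shoot epidermis genes 3 were lower and 1 higher in the authors' deposited table. The wax synthesis genes CER6 and CER3 had log2 ratios of -1.25 and -1.35 in the authors' deposited table, and ACR4, a receptor kinase of the outer cell layer, one of -1.30. DCR, an acyltransferase gene of cutin, was higher with a log2 ratio of 1.11 in the authors' deposited table. The summed implied mean of these 4 was 29422 normalized counts in WT and 12780 in dme. Of 16 photosynthesis genes of the mesophyll 6 were lower and 0 higher, with log2 ratios of -1.55 for CAO and -2.15 for GLK2 in the authors' deposited table, and a summed implied mean of 163038 in WT and 69370 in dme. Of 20 root genes 16 were higher and 0 lower, with a median log2 ratio of 2.97 in the authors' deposited table, and a summed implied mean of 911 in WT and 15414 in dme. Most of that sum in dme came from the sulfate transporter gene SULTR1;2 (5830) and the iron uptake genes FRO2 (2173) and IRT1 (2121), given as implied means. Of 10 trichome genes 1 was lower and 3 higher, with log2 ratios of -2.06 for GIS and 1.78 for TCL1 in the authors' deposited table. The part of these marker changes in the lower levels of the 4 genes was not tested.

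**Figure D5:**
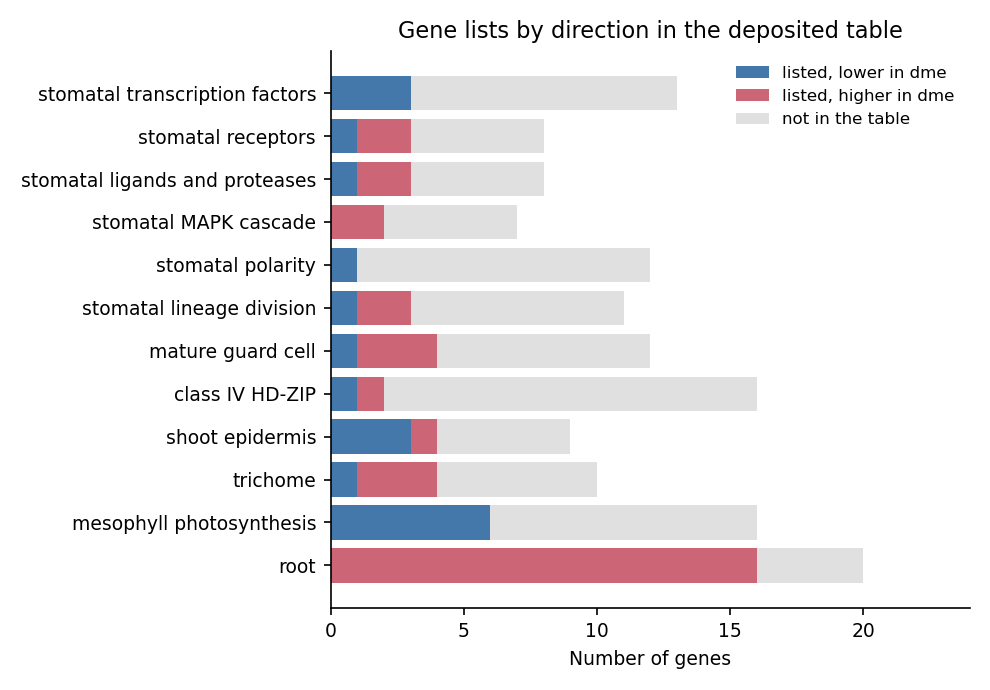
Number of genes of each list (x axis) that were lower in dme (blue), higher in dme (red) or not in the authors' deposited table (grey). Of the photosynthesis genes 6 of 16 were listed, as lower, and of the root genes 16 of 20, as higher. FAMA, TMM, BASL and HDG2 are counted in their lists, where they were chosen as lower. All lists were chosen with earlier results of these data known.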

How the data were processed

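RNA of whole seedlings was sequenced in 3 WT and 3 dme libraries, grouped by their titles. Reads were processed on the build TAIR10 with StringTie 2.1.3, HISAT2 2.1.0 and Trimmomatic 0.36 among the tools that the submitters' processing notes list. How reads were counted, whether strand was used and which tool made the comparison were not given in the sources used here. The authors deposited 1 table of their own comparison, with 0 columns of values per library. Its mean normalized count is a signal that the authors scaled in a way not stated, per the file headers. Its change is deposited both in log2 and as a linear fold ratio, and its adjusted p-value is the authors' own, with the method not stated. Depth is unknown, and the planned fits on libraries could not be run. Rows repeated under a second locus code (11 of 5322) were counted once. Folds of 290 genes, 55 of them lower, depend on the mean alone, as when 1 genotype has no reads, and were left out of medians and ranks of the lower and higher genes.

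Implied means and SE bounds were computed as described with the values. A run on simulated data checked the arithmetic only. The simulation was built on the same assumptions, so its outcome was fixed in advance and it does not test whether they hold here. The 4 genes and all lists were chosen with earlier results of these data known. By the rule for named genes, the 4 genes and every listed gene of the 6 stomatal lists are given, with counts and at most 4 listed genes of each other list, those of smallest adjusted p; of the photosynthesis list GLK2 and CAO, of the trichome list GIS and TCL1, and of the root list SULTR1;2 and FRO2 are named, with IRT1 named after its values were seen. Other genes are named only as not listed, as neighbours or as best matches. Genes with the most similar pattern could not be sought without values per library. Of 142 list entries all had their locus in the annotation, and 137 also matched by symbol. Gene positions, sequences and motifs come from RefSeq TAIR10.1, matched by locus code, while the deposited table has no coordinates. The tools were blastn 2.17.0, matplotlib 3.10.9, pandas 2.3.3, scipy 1.17.1 and numpy 2.4.6 under Python 3.11.15. Alternatives were an adjusted p under 0.01, a mean of at least 50, a 4-fold threshold and shifts of 0.5 in log2, and, chosen after seeing the data, windows of 500 and 1000 bases.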

Additional observations from a re-analysis of the deposited data

How the results depend on the processing

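The 4 genes stayed lower in dme under both shifts of all log2 ratios of the authors' deposited table. This was fixed in advance, because every gene of the table passed 2-fold and the shifts are 0.5 in log2. A shift up by 0.5 took each of the 4 inside the 2-fold limit, to -0.80 for FAMA, -0.99 for TMM, -0.99 for BASL and -0.56 for HDG2. Such a shift stands for another scaling of the libraries, and no value here shows that it applies. Of the 59 stomatal genes, 7 were lower and 8 higher as deposited. At 4-fold 1 was lower and 5 were higher, and with the shift up 1 was lower, fewer by construction. Over the whole table the lower genes went from 1444 to 343 at 4-fold and to 631 with the shift up, and the higher ones from 3867 to 2035 at 4-fold. With an adjusted p under 0.01, a mean of at least 50 or a shift down, the counts stayed within 1.5 times. Genes outside the table cannot enter under any shift. An L1 box was found upstream of 3 of the 4 genes with windows of 250, 500 and 1000 bases, while its share over all genes rose from 4.49% to 8.76% and 15.8%. No paired analysis was possible because the table gives no values per library, and for the same reason leaving out replicates was not run. Depth and spread between libraries are unknown for all 4 genes.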

Other observations

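The annotation text in the authors' deposited table names stomata or guard cells for 31 listed genes outside the lists, of which 8 (25.8%) were lower and 23 higher in dme, a share of lower genes near the 27.2% of the whole table. The search was made after the values were seen, and the genes named here were chosen from it. CHX20, a cation exchanger gene of guard cells, is given by the authors' deposited table with a log2 ratio of -2.03 and a mean of 412 normalized counts. As a point value this fall is larger than those of FAMA, TMM, BASL and HDG2. No interval is given for CHX20 here, so that order is not resolved. ASPG1, an aspartic protease gene that acts in guard cells, stood at -1.07 in the authors' deposited table. The anion channel genes SLAH1, SLAH2 and SLAH3, homologues of the guard cell channel gene SLAC1, were 2.57-fold, 4.61-fold and 7.02-fold higher in the authors' deposited table. CPK6, a calcium-dependent kinase gene with a role in guard cell abscisic acid signalling, was higher with a log2 ratio of 1.88 in the authors' deposited table, as was CYCD4;1, a cyclin gene of stomatal lineage divisions in the hypocotyl, at 1.71 with an adjusted p of 0.0140.

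The L1 box was also found within 250 bases upstream of 4 of the other 55 genes of the stomatal lists, namely MUTE, MKK7, MPK6 and CYCD5;1, none of which was in the authors' deposited table. MUTE held 3 matches. Of the 12 markers of mature guard cells and of the 10 trichome genes 0 held it, and of the 16 class IV genes 3 did, HDG2 among them. It was also found in lists outside the stomatal lineage, in 2 of 16 photosynthesis genes, 2 of 20 root genes and 1 of 9 shoot epidermis genes, against 4.49% of all protein-coding genes. These counts are a description, and no binding was measured.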
